A study of Mus musculus with 16 samples.

Results

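The proteasome genes were taken as all genes whose name on the array begins with Psm followed by a letter from a to g and a digit. The rule took 62 probes of 49 genes, out of 34741 genes named on the array, and the brightest probe stood for each gene. RNA of whole uteri was measured on 16 one-colour Agilent arrays of 60-base probes. All mice had been ovariectomised at 4 weeks of age, which removes the main source of estrogen, and kept for 2 to 3 weeks on normal chow. Their 4 groups of 4 samples, 1 array each, were Arg260 mice given 8 µg/kg of estradiol (E2), Arg260 mice given 0 µg/kg (PLB, the castor oil alone), WT mice given E2 and WT mice given PLB, each injected under the skin 6 h before the uterus was taken. Arg260 mice carry a form of estrogen receptor alpha named for that arginine; the labels name no tissue-specific driver and do not state what replaces the arginine. Nor do they tie each sample to its own animal, so that p-values cover only the spread among these samples, which may be technical. Whole uterus mixes cell types, and in it fewer cells of a type and less RNA per cell cannot be told apart.

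The proteasome is the barrel-shaped protease that degrades proteins tagged with ubiquitin. Its core particle stacks rings of alpha subunits, which gate the entrance, around rings of beta subunits, of which Psmb5, Psmb6 and Psmb7 do the cutting. A cap, built from a base of ATPases that unfold the substrate and a lid that removes ubiquitin, sits on the core. Under interferon, and in immune cells at rest, Psmb8, Psmb9 and Psmb10 take the places of Psmb5, Psmb6 and Psmb7 in newly built cores; this immunoproteasome and its activator PA28, made of Psme1 and Psme2, favour the peptides shown on major histocompatibility complex (MHC) class I. The transcription factor Nfe2l1 (also called Nrf1) raises most core and cap genes together when proteasome activity runs short.

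Of the 49 genes, 31 encode the constitutive core (14) and cap (17), 5 the immunoproteasome and PA28, 7 assembly chaperones, 3 other activators and an inhibitor, and 2 core subunits restricted to other tissues. Psmc3ip, a partner in meiotic recombination, was caught by its name and is not a subunit. A total of 46 genes were well above background on all 16 arrays and Psmb3 on 15. Psma8, the alpha subunit of spermatocytes, and Psmb11, the beta subunit of the thymic cortex, were not well above background on any array and were not tested. Values are log2 signals minus the log2 75th percentile of the array, so that a difference of 1 is a 2-fold change in signal; levels of different probes cannot be set against each other. On each array 61.6% to 70.6% of the spots were well above background and 0 were saturated. Within a group, arrays correlated at 0.980 to 0.993 over genes (genes are not replicates). On the second principal component, with 5.12% of the variance, Arg260 PLB replicate 3 and WT PLB replicate 2 stood apart. The tissue's own markers were measured: all 7 epithelial, 6 smooth muscle and 6 stromal genes of the marker lists passed the filter.

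E2 was followed by higher levels of nearly the whole constitutive proteasome in both genotypes. In limma across all 25862 genes tested, with Benjamini-Hochberg adjustment, 42 of 47 members were higher in Arg260 E2 than in Arg260 PLB uteri and 2 were lower, where 33.6% of all genes were higher and 30.7% lower. In WT, 42 were higher and 3 lower, where 31.9% of all genes were higher and 31.7% lower. The same 42 genes were higher in both genotypes. The median log2 change of the members was 0.94 in Arg260 and 0.92 in WT, beside 0.02 and -0.02 over all genes tested. The E2 and PLB arrays did not overlap for 45 members in Arg260 and 44 in WT, where 58.7% and 59.1% of all genes did not overlap. All 31 core and cap genes were among them in each genotype. Leaving aside Psmb3, whose value rested on a single spot, 21 of 46 members in Arg260 and 17 in WT were at least 2-fold higher. The size of the rise depended on the scaling of the arrays. With quantile normalisation, another scaling, the members' median was 0.64 in Arg260 and 0.65 in WT. In limma 39 members were then higher and 2 lower in Arg260, and 38 higher and 4 lower in WT. Within slide 1, 41 members were higher in Arg260 and 39 in WT, and within slide 2, 39 in each. Both arrays that stood apart were PLB arrays; without them 43 members were higher and 2 lower in Arg260, and 41 higher and 3 lower in WT.

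**Figure D1:**
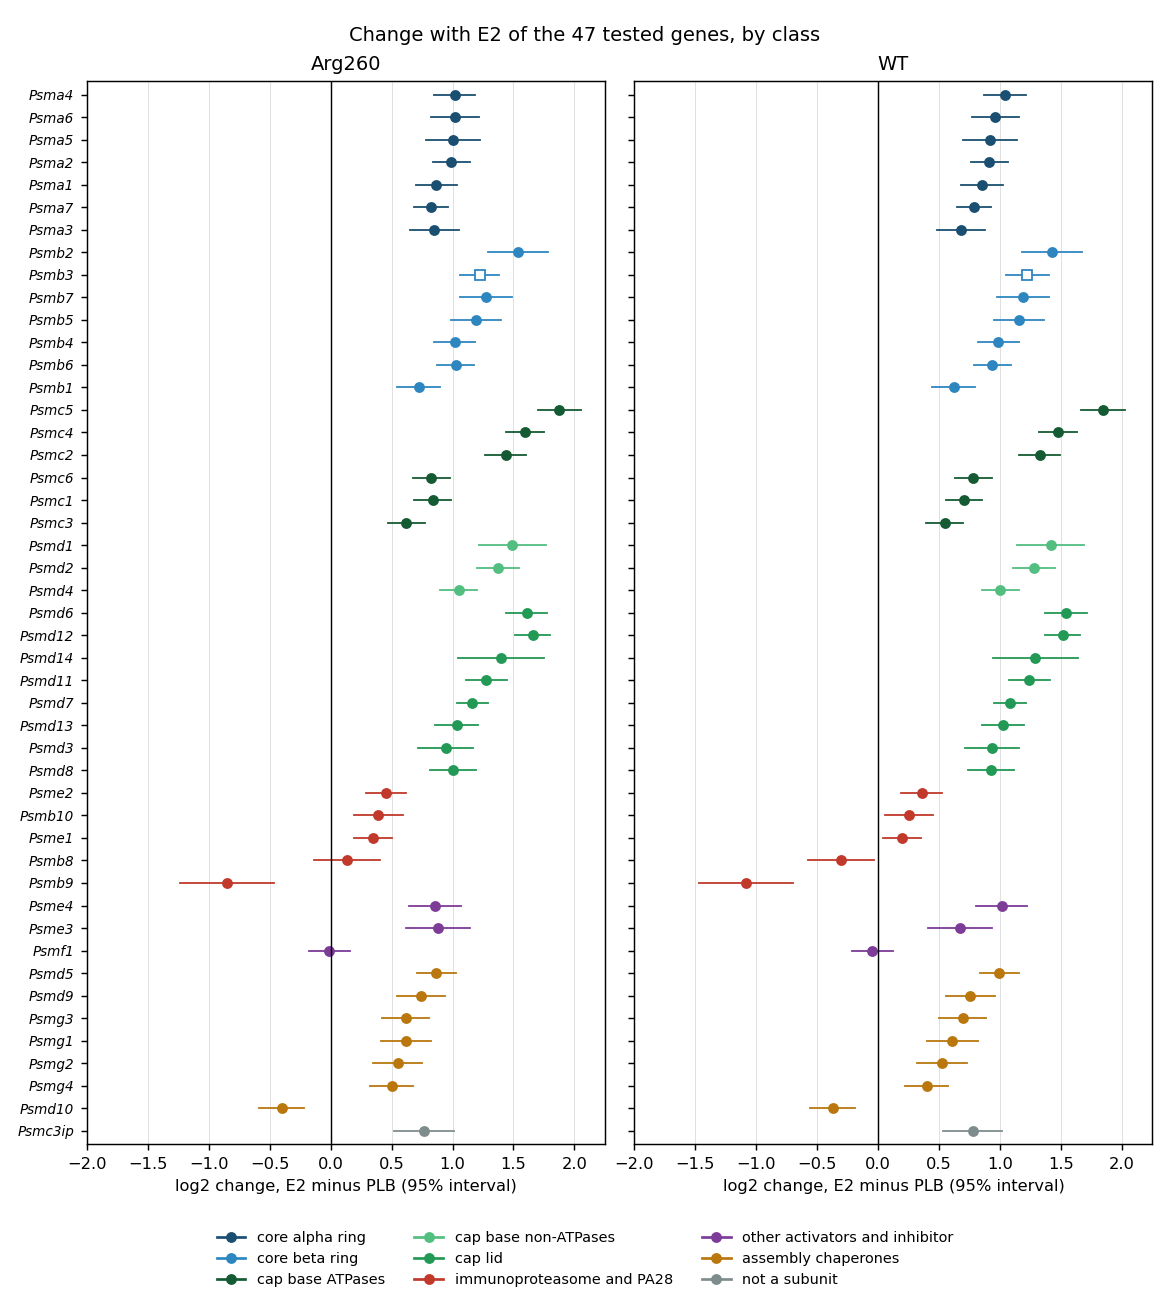
Log2 change in signal, E2 minus PLB, of each of the 47 tested genes (points) with its 95% interval (lines), in Arg260 uteri on the left and WT uteri on the right, coloured by class. Every core and cap gene lies right of 0 in both genotypes, from Psmc3 at 0.62 in Arg260 and 0.54 in WT to Psmc5 at 1.88 and 1.85. Psmb9, Psmd10 and, close to the line, Psmf1 lie left of 0 in both genotypes, and Psmb8 does in WT only (-0.31). The open square is Psmb3 without the failed spot on WT PLB replicate 2.

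The alpha ring rose as a block. All 7 alpha genes were higher in each genotype, with a median log2 change of 0.99 in Arg260 and 0.91 in WT. Psma4, the alpha gene with the largest WT change, read 3.58, 3.34, 3.50 and 3.34 in Arg260 E2, 2.36, 2.43, 2.46 and 2.45 in Arg260 PLB, 3.22, 3.30, 3.44 and 3.29 in WT E2, and 2.27, 2.44, 2.21 and 2.17 in WT PLB uteri. Every E2 array lay above every PLB array, a rise of 1.02 (SE 0.08, adjusted p = 3.99e-08 in limma) in Arg260 and 1.04 (SE 0.08, adjusted p = 3.16e-08) in WT. Psma3, with the smallest WT change of the ring, read 6.22, 5.93, 5.76 and 6.00 in Arg260 E2, 5.18, 5.21, 5.02 and 5.10 in Arg260 PLB, 5.98, 5.87, 5.80 and 5.78 in WT E2, and 5.20, 5.05, 5.27 and 5.20 in WT PLB uteri. Its groups did not overlap either, and it rose by 0.85 in Arg260 and 0.68 in WT, or 1.80-fold and 1.60-fold.

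The beta ring rose as well. Of its 7 genes 6 were higher in each genotype, and without Psmb3 the median was 1.11 in Arg260 and 1.07 in WT. Psmb2, a structural beta subunit, read 2.31, 2.18, 2.07 and 2.16 in Arg260 E2, 0.41, 0.43, 0.85 and 0.87 in Arg260 PLB, 1.88, 2.05, 2.10 and 1.75 in WT E2, and 0.50, 0.59, 0.55 and 0.44 in WT PLB uteri. With a rise of 1.54 (SE 0.12) in Arg260 and 1.42 (SE 0.12) in WT it had the largest change of the ring among probes without a failed spot. Psmb1, also structural, had the smallest, at 3.95, 3.88, 3.83 and 3.98 in Arg260 E2, 3.05, 3.27, 3.09 and 3.34 in Arg260 PLB, 3.67, 3.88, 3.90 and 3.69 in WT E2, and 3.12, 3.12, 3.26 and 3.15 in WT PLB uteri. It rose by 0.72 in Arg260 and 0.62 in WT.

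Psmb3 was not called, and 1 spot decides this. It read 5.68, 5.56, 5.40 and 5.68 in Arg260 E2, 4.33, 4.29, 4.32 and 4.50 in Arg260 PLB, 5.43, 5.51, 5.50 and 5.48 in WT E2, and 4.31, -8.35, 4.24 and 4.21 in WT PLB uteri. The spot at -8.35, on WT PLB replicate 2, was the one array where the probe was not well above background, and the authors' series table lists it as missing. With the spot kept the log2 change was 1.22 (SE 2.07, adjusted p = 0.62) in Arg260 and 4.38 (SE 2.07, adjusted p = 0.079) in WT. Without it, a choice made after its value was seen, the fit on 15 arrays gave 1.22 (SE 0.08, adjusted p = 8.05e-09) in Arg260 and 1.22 (SE 0.08, adjusted p = 1.68e-08) in WT.

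All 17 cap genes were higher in each genotype, with a median log2 change of 1.27 in Arg260 and 1.24 in WT. In the core without Psmb3 the medians were 1.02 and 0.94, and the difference between core and cap was not tested. The ATPases of the base differed widely among themselves. Psmc5 had the largest change of the ring and of the cap, reading 4.97, 4.84, 4.73 and 4.73 in Arg260 E2, 2.78, 2.89, 2.90 and 3.17 in Arg260 PLB, 4.65, 4.64, 4.71 and 4.63 in WT E2, and 2.84, 2.82, 2.71 and 2.86 in WT PLB uteri. This was a 3.67-fold rise in Arg260 (log2 1.88, SE 0.08, adjusted p = 2.04e-10) and a 3.60-fold rise in WT (log2 1.85, SE 0.08, adjusted p = 2.35e-10). Psmc3, another ATPase, had the smallest of the ring, at 6.43, 6.46, 6.44 and 6.44 in Arg260 E2, 5.83, 5.78, 5.75 and 5.92 in Arg260 PLB, 6.21, 6.46, 6.48 and 6.29 in WT E2, and 5.81, 5.88, 5.87 and 5.71 in WT PLB uteri. Its rise was 1.54-fold in Arg260 and 1.46-fold in WT. The log2 changes in signal of the 6 ATPases, which enter the ring in equal numbers, ran from 0.62 to 1.88 in Arg260. In WT they ran from 0.54 to 1.85. Each is the value of a single probe, and differences among the genes were not tested.

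The base also holds scaffold subunits and ubiquitin receptors. Psmd1, the scaffold with the largest WT change of this class, read 5.32, 5.07, 4.86 and 4.90 in Arg260 E2, 3.56, 3.44, 3.39 and 3.80 in Arg260 PLB, 4.90, 4.97, 5.14 and 4.74 in WT E2, and 3.75, 3.54, 3.39 and 3.40 in WT PLB uteri. It rose by 1.49 (SE 0.13) in Arg260 and 1.41 (SE 0.13) in WT. Psmd4, a ubiquitin receptor with the smallest change of the class, read 5.98, 5.91, 5.76 and 5.96 in Arg260 E2, 4.79, 4.85, 4.75 and 5.01 in Arg260 PLB, 5.74, 5.83, 5.87 and 5.88 in WT E2, and 4.86, 4.84, 4.81 and 4.81 in WT PLB uteri. It was 2.07-fold higher in Arg260 and 2.00-fold higher in WT. Psmd2, the other large scaffold, rose by 1.37 and 1.28.

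In the lid all 8 genes were higher in each genotype, with a median of 1.22 in Arg260 and 1.16 in WT. Psmd6, a scaffold subunit of the lid, read 4.31, 4.12, 4.09 and 4.18 in Arg260 E2, 2.51, 2.48, 2.60 and 2.66 in Arg260 PLB, 3.96, 4.08, 4.04 and 3.88 in WT E2, and 2.42, 2.51, 2.29 and 2.58 in WT PLB uteri. It had the largest WT change of the lid, 1.54 (SE 0.08, adjusted p = 6.85e-10), beside 1.61 (SE 0.08, adjusted p = 4.49e-10) in Arg260. Psmd8 had the smallest WT change of the lid, at 3.10, 2.89, 2.96 and 3.06 in Arg260 E2, 1.86, 1.87, 2.06 and 2.19 in Arg260 PLB, 2.85, 2.96, 2.88 and 2.70 in WT E2, and 1.81, 1.99, 1.95 and 1.95 in WT PLB uteri, a rise of 1.01 in Arg260 and 0.92 in WT, while the smallest in Arg260 was that of Psmd3, at 0.94. Psmd14, the enzyme that cleaves ubiquitin off the substrate, rose by 1.40 (SE 0.16) and 1.29 (SE 0.16), with the widest interval of the lid. Psmd12 had the smallest p of all members in both genotypes, with rises of 1.66 and 1.51.

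**Figure D2:**
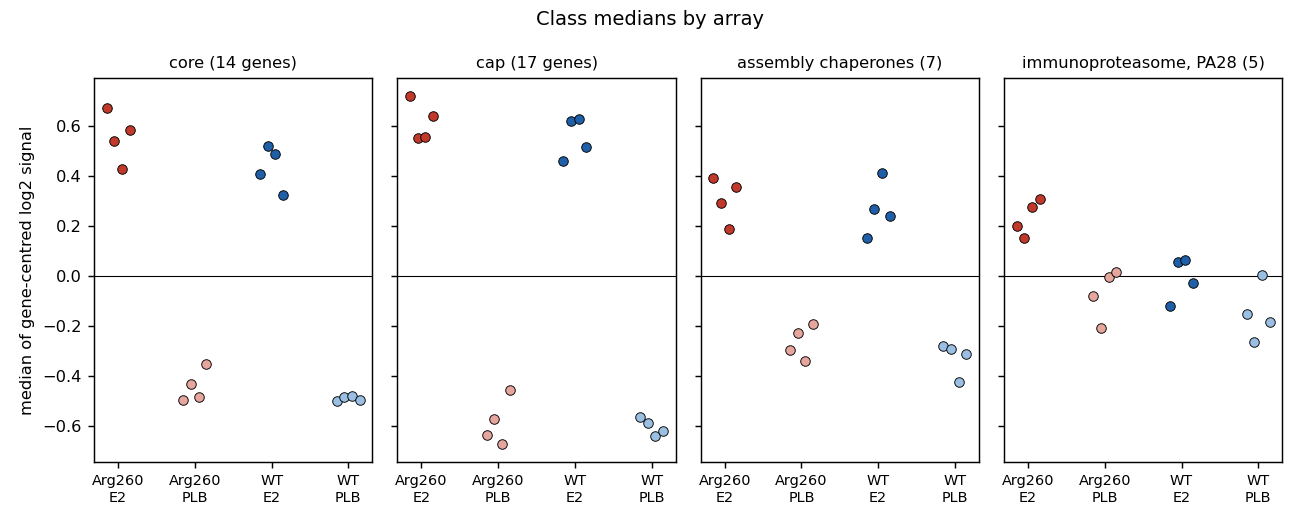
Median over the genes of a class of the log2 signal, each gene centred on its mean over the 16 arrays (y axis), for the 4 arrays of each group (points). In the core, the cap and the assembly chaperones all 8 E2 arrays lie above 0 and all 8 PLB arrays below it. In the immunoproteasome and PA28 class the 4 Arg260 E2 arrays (0.15 to 0.31) lie above all others. The other groups of that class overlap, from -0.26 to 0.06.

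The catalytic subunits separated by kind. The constitutive Psmb5, Psmb6 and Psmb7 rose in both genotypes, while of the subunits that take their places Psmb9 fell, and Psmb8 and Psmb10 changed by 0.39 or less in size. Psmb5, which carries the chymotrypsin-like activity, read 6.55, 6.43, 6.34 and 6.60 in Arg260 E2, 5.20, 5.32, 5.15 and 5.50 in Arg260 PLB, 6.26, 6.40, 6.56 and 6.41 in WT E2, and 5.18, 5.27, 5.14 and 5.41 in WT PLB uteri. It rose by 1.19 (SE 0.10) in Arg260 and 1.16 (SE 0.10) in WT. Psmb6, with the caspase-like activity, read 6.55, 6.49, 6.37 and 6.51 in Arg260 E2, 5.43, 5.50, 5.33 and 5.56 in Arg260 PLB, 6.31, 6.49, 6.43 and 6.29 in WT E2, and 5.43, 5.50, 5.46 and 5.39 in WT PLB uteri, a rise of 1.03 and 0.94. Psmb7, with the trypsin-like activity, read 3.51, 3.26, 3.31 and 3.44 in Arg260 E2, 1.94, 1.96, 2.28 and 2.23 in Arg260 PLB, 3.14, 3.32, 3.24 and 2.99 in WT E2, and 1.87, 1.98, 2.01 and 2.07 in WT PLB uteri, a rise of 1.28 and 1.19. None of these 3 had an E2 array within the range of the PLB arrays of its genotype.

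Psmb9, the immunoproteasome counterpart of Psmb6, read 1.06, 1.25, 1.56 and 1.48 in Arg260 E2, 2.31, 1.89, 2.60 and 1.95 in Arg260 PLB, 0.84, 0.96, 1.04 and 1.07 in WT E2, and 2.06, 1.76, 2.52 and 1.90 in WT PLB uteri. Every E2 array lay below every PLB array of its genotype, and Psmb9 fell by 0.85 (SE 0.18, adjusted p = 0.00075 in limma) in Arg260 and by 1.08 (SE 0.18, adjusted p = 9.38e-05) in WT. Its other probe, well above background on 9 arrays, changed by -2.15 and -1.54. Psmb8, the counterpart of Psmb5, read 2.46, 2.28, 2.48 and 2.52 in Arg260 E2, 2.30, 2.15, 2.59 and 2.17 in Arg260 PLB, 1.79, 2.08, 1.63 and 2.02 in WT E2, and 2.25, 2.00, 2.40 and 2.08 in WT PLB uteri. The groups overlapped in both genotypes. The log2 change was 0.13 (SE 0.13, adjusted p = 0.38) in Arg260, and in WT it fell by 0.31 (SE 0.13, adjusted p = 0.0453), which was not called within slide 1 (log2 -0.19, adjusted p = 0.338) or slide 2 (-0.42, 0.171), nor without WT E2 replicate 1 (adjusted p = 0.101) or 3 (0.143), WT PLB replicate 1 (0.0952) or 3 (0.14). Leaving out Arg260 E2 replicate 1, 3 and 4 in turn also ended it (adjusted p = 0.0536, 0.0538 and 0.0529), as did leaving out Arg260 PLB replicate 1 (0.0557), scaling to the median (log2 -0.22, adjusted p = 0.139) and using no filter (0.0681). Within slide 2 the Psmb9 value of Arg260 was not called either (log2 -0.76, adjusted p = 0.076). Psmb10, the counterpart of Psmb7, read 4.78, 4.86, 4.97 and 4.91 in Arg260 E2, 4.52, 4.39, 4.40 and 4.63 in Arg260 PLB, 4.48, 4.74, 4.72 and 4.64 in WT E2, and 4.45, 4.28, 4.61 and 4.23 in WT PLB uteri. It was higher by 0.39 (SE 0.09, adjusted p = 0.00181) in Arg260, where the groups did not overlap, and by 0.25 (SE 0.09, adjusted p = 0.027) in WT, where they did. The WT call of Psmb10 was lost without WT E2 replicate 2 (adjusted p = 0.0753) or 3 (0.0673) or WT PLB replicate 2 (0.0795) or 4 (0.0864). Within slides 1 and 2 Psmb10 was not called in Arg260 (adjusted p = 0.0563 and 0.0922) or in WT (0.161 and 0.261).

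**Figure D3:**
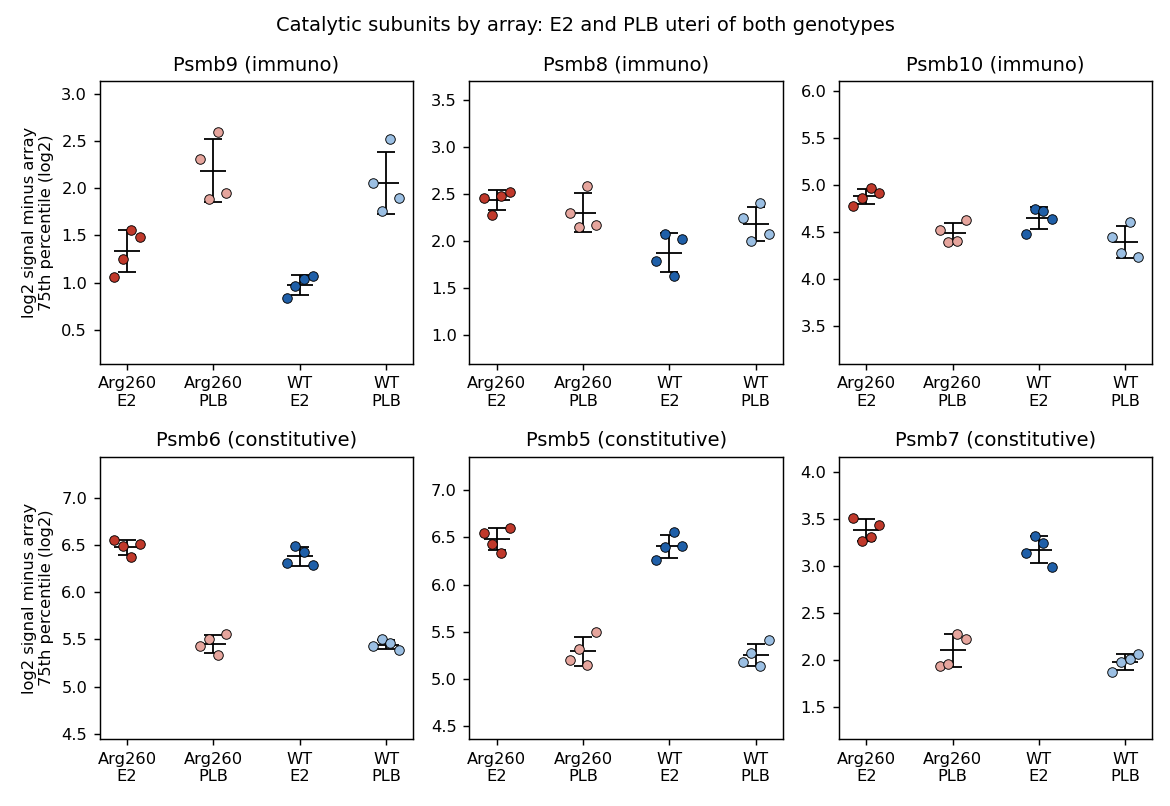
Log2 signal minus the log2 75th percentile of the array (y axis) for the 3 immunoproteasome subunits (top) and the constitutive subunits they replace (bottom), 4 arrays per group (points) with mean and SD (bars); each panel spans the same 3 log2 units. Psmb6, Psmb5 and Psmb7 are about 1 log2 unit higher with E2 in both genotypes, Psmb9 is lower, and Psmb8 overlaps between E2 and PLB.

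The change with E2 of an immunoproteasome subunit relative to its constitutive counterpart was then tested on the same arrays. There a constant shift of an array's log2 values cancels, but not a scaling that moves probes by different amounts. An exact permutation of the E2 and PLB labels within genotype, with 4900 assignments, two-sided, was adjusted over the 3 pairs. Psmb9 minus Psmb6 changed by -1.95, from per-array differences with an SD of 0.25 on E2 and 0.36 on PLB arrays. Psmb8 minus Psmb5 changed by -1.26 (SD 0.32 on E2 and 0.29 on PLB arrays) and Psmb10 minus Psmb7 by -0.91 (SD 0.14 and 0.19). Each had an adjusted p of 0.000408, the smallest that these assignments can give, and in no pair did E2 and PLB arrays overlap. Psmb9 and Psmb6 were already separated in opposite directions in each genotype, which alone fixes this p for their pair. The pairs were chosen with earlier results of these data known, so the p adds no support beyond the single genes. Among single genes, 58.7% in Arg260 and 59.1% in WT did not overlap either. How often other pairs of genes reach this p was not tested. Within Arg260 the changes were -1.88, -1.06 and -0.89, and within WT -2.02, -1.46 and -0.94, each at an exact p of 0.0286, the smallest of 70 assignments. Whether these changes differ between genotypes was not tested. Within slide 1 they were -1.97, -1.19 and -1.07 and within slide 2 -1.92, -1.33 and -0.76, with p = 0.0556 in each, the smallest that an exact permutation of a single slide allows. Over 22 alternatives they ran, in the same order, from -2.38 to -1.85, from -1.37 to -1.19 and from -1.10 to -0.76.

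Of the probes behind these values, 3 are shown so that it can be seen what was hybridised: those of the immunoproteasome subunits Psmb9 and Psmb8, which both lie in the MHC region of chromosome 17, and that of the constitutive Psmb7. On mouse build mm9, per the scanner files, the Psmb9 probe lies at chr17:34319174-34319233 (minus strand), the Psmb8 probe at chr17:34337771-34337830 (plus strand) and the Psmb7 probe at chr2:38468966-38489385 (minus strand), where its 60 bases span an intron. The files do not say which of these stretches are coding.
Psmb9 probe: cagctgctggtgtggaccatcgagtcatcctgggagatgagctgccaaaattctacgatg
Psmb8 probe: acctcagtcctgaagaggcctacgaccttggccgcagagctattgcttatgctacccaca
Psmb7 probe: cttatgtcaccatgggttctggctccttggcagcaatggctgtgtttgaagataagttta

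PA28, the activator that opens the core for peptides, rose slightly at the main scaling. Psme1 read 4.39, 4.34, 4.54 and 4.50 in Arg260 E2, 4.01, 3.98, 4.19 and 4.21 in Arg260 PLB, 4.16, 4.25, 4.25 and 4.16 in WT E2, and 4.03, 3.93, 4.10 and 4.01 in WT PLB uteri. The groups did not overlap, and the log2 change was 0.35 (SE 0.07, adjusted p = 0.00067) in Arg260 and 0.19 (SE 0.07, adjusted p = 0.0323) in WT. The WT call was lost without WT E2 replicate 2 (adjusted p = 0.0746) or 3 (0.0724) or WT PLB replicate 2 (0.0947) or 4 (0.0594), within slide 1 (0.0906) and with no filter (0.0563). Psme2 read 5.35, 5.21, 5.08 and 5.26 in Arg260 E2, 4.76, 4.72, 4.74 and 4.87 in Arg260 PLB, 4.92, 5.09, 5.17 and 4.98 in WT E2, and 4.66, 4.65, 4.81 and 4.61 in WT PLB uteri, a log2 change of 0.45 and 0.36. Psme2 has a near-identical copy in the mouse genome, so its signal is uncertain. A further probe changed by 0.55 in Arg260 and 0.40 in WT, and the dimmest by -0.78 and -0.90. Within slide 2 neither Psme1 (adjusted p = 0.0672 in Arg260 and 0.318 in WT) nor Psme2 (0.095 and 0.0995) was called.

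These small rises depended on how the arrays were scaled. With quantile normalisation, Psmb10, Psme1 and Psme2 changed by -0.14, -0.16 and -0.05 in Arg260 and by -0.21, -0.25 and -0.11 in WT; the WT value of Psme1 was then called lower (adjusted p = 0.0117), and the other 5 were not called. Psmb8 changed by -0.18 in Arg260 and -0.53 in WT under that scaling. The members' median was 0.64 in Arg260 and 0.65 in WT, while the median of all genes shifted by less than 0.03. Core and cap genes kept their direction in all 31 cases in both genotypes, and so did the fall of Psmb9. The cause of the shift was not tested.

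**Figure D4:**
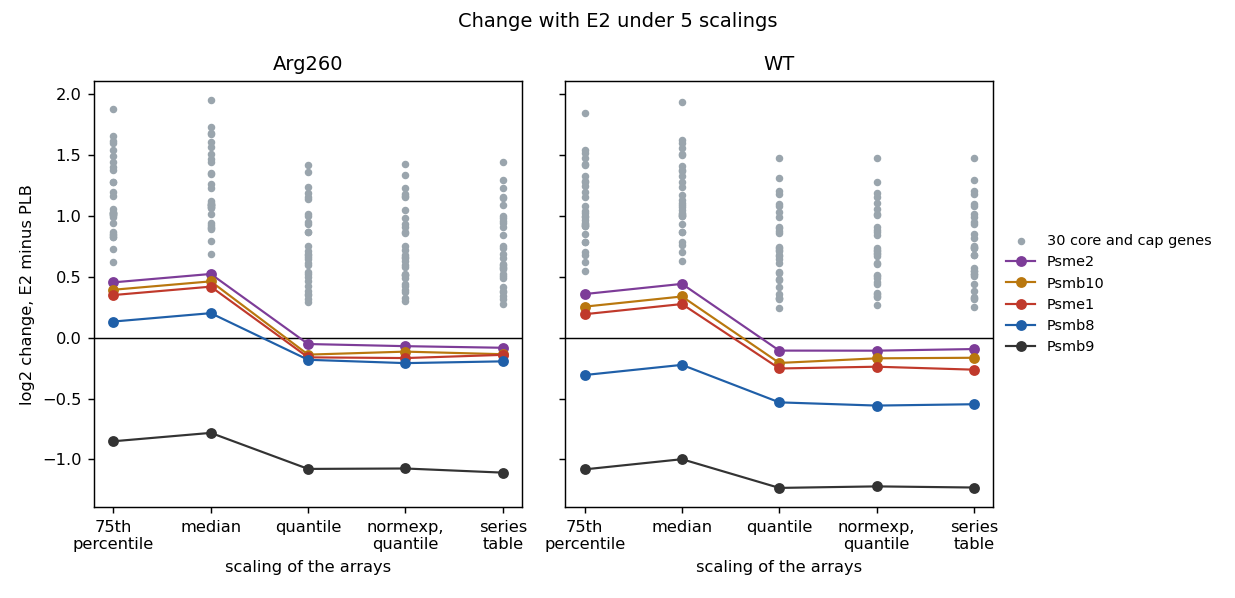
Log2 change in signal, E2 minus PLB (y axis), under 5 scalings of the arrays (x axis), in Arg260 on the left and WT on the right; lines are the 5 immunoproteasome and PA28 genes and grey points the 30 core and cap genes without Psmb3. All grey points stay above 0 under each scaling, whereas Psme2, Psmb10 and Psme1 lie above 0 with the 75th percentile and the median and below 0 with the other 3.

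Genes of peptide loading and interferon signalling were measured beside the immunoproteasome. Of 13 such genes 3 were higher and 2 lower in Arg260, where 33.6% of all genes were higher and 30.7% lower. In WT 1 was higher and 5 lower, where 31.9% of all genes were higher and 31.7% lower. Tap1, which carries peptides to MHC class I and lies beside Psmb9, fell by 0.48 (adjusted p = 0.00369 in limma) in Arg260 and by 1.02 (adjusted p = 4.29e-06) in WT. B2m, the light chain of MHC class I, fell by 0.40 and 0.61. Erap1, which trims peptides in the endoplasmic reticulum, rose by 0.95 and 0.84. Irf9, a transcription factor gene of interferon signalling, rose by 0.37 (adjusted p = 0.00321 in limma) in Arg260, with 0.03 in WT. H2-K1 rose by 0.32 (adjusted p = 0.0451 in limma) in Arg260, with -0.01 in WT. A difference between genotypes was not called for any gene. Between Arg260 and WT, 7 of the 13 had an unadjusted limma p under 0.05 in E2 uteri and 0 in PLB uteri. Of all genes 7.35% and 2.47% had such a p.

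Markers of other cell types were read beside the members. Of 12 leukocyte markers, 1 was higher and 2 lower in Arg260 and 1 higher and 3 lower in WT, where 33.6% of all genes were higher and 30.7% lower in Arg260 and 31.9% and 31.7% in WT. The log2 of their summed signal ran from 5.20 to 5.43 in Arg260 E2, from 5.42 to 6.72 in Arg260 PLB, from 5.17 to 5.28 in WT E2 and from 5.52 to 5.54 in WT PLB uteri. All 12 passed the filter, none being at background throughout, and Csf1r, the macrophage receptor gene, fell by 0.79 in Arg260 and 0.71 in WT. Cd68, a lysosomal gene of macrophages, was the one higher, by 0.51 (adjusted p = 0.0396 in limma) in Arg260 and 0.66 (adjusted p = 0.0108) in WT. Of 7 adipocyte markers 2 were called lower in Arg260 and 7 in WT. In Arg260 all 7 changes were negative too, from -2.63 to -1.43, and no difference of response between genotypes was called. Their sums ran from 1.85 to 5.44 in Arg260 E2 and from 4.49 to 6.25 in Arg260 PLB uteri. In WT the sums were -0.69 to 4.21 with E2 and 5.36 to 7.06 with PLB. Of 6 stromal markers 3 were called lower in each genotype. The sums were 7.64 to 7.92 in Arg260 E2, 8.46 to 8.80 in Arg260 PLB, 7.59 to 8.12 in WT E2 and 8.22 to 8.68 in WT PLB uteri. Of 7 markers of uterine epithelium 5 were higher and 1 lower in Arg260 and 3 higher and 1 lower in WT, with sums of 7.07 to 7.58 in Arg260 E2, 6.89 to 7.26 in Arg260 PLB, 7.02 to 7.45 in WT E2 and 6.94 to 7.35 in WT PLB uteri. Of 6 smooth muscle markers 1 was higher in Arg260 and 3 in WT, with sums of 9.25 to 9.51 in Arg260 E2, 8.59 to 9.44 in Arg260 PLB, 9.12 to 9.61 in WT E2 and 8.62 to 9.06 in WT PLB uteri. Of 5 endothelial markers 2 were higher in Arg260, and 1 was higher and 2 lower in WT, with sums of 3.48 to 3.91 in Arg260 E2, 2.83 to 3.17 in Arg260 PLB, 3.29 to 3.70 in WT E2 and 3.10 to 3.21 in WT PLB uteri. Of 5 granulocyte markers tested 1 was higher and 1 lower in each genotype. The part of these markers in the values of the core and cap or of the immunoproteasome genes was not tested.

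Assembly chaperones, which put the core and the base together and leave the finished particle, rose as well. Of 7, 6 were higher and 1 lower in each genotype, with a median of 0.62 in Arg260 and 0.61 in WT (0.17 and 0.24 in the authors' series table), beside 1.03 and 1.01 over the 30 core and cap genes without Psmb3. The difference between the classes was not tested. Psmd5, which escorts ATPases of the base, had the largest change and read 2.32, 2.20, 2.27 and 2.16 in Arg260 E2, 1.30, 1.41, 1.44 and 1.33 in Arg260 PLB, 2.27, 2.34, 2.19 and 2.19 in WT E2, and 1.27, 1.24, 1.09 and 1.42 in WT PLB uteri, a rise of 0.87 and 0.99. Psmg4 rose by 0.50 and 0.40, Psmg1 by 0.62 and 0.61, Psmg2 by 0.55 and 0.52 and Psmg3 by 0.62 and 0.69. In the authors' series table Psmg1 in Arg260 and Psmg2 and Psmg4 in both genotypes kept their sign and were not called (adjusted p 0.0633 to 0.110 in limma). Psmd10, also called gankyrin and likewise an escort of the ATPases, went the other way. It read 0.09, -0.06, -0.22 and 0.12 in Arg260 E2, 0.42, 0.45, 0.44 and 0.23 in Arg260 PLB, -0.03, -0.06, 0.19 and 0.00 in WT E2, and 0.37, 0.48, 0.38 and 0.36 in WT PLB uteri, and fell by 0.40 (adjusted p = 0.00088 in limma) in Arg260 and by 0.37 (adjusted p = 0.00159) in WT. Its other probe changed by -0.06 and 0.10, and with the mean of both probes the fall was not called (adjusted p = 0.124 and 0.356). The probes of Psmd9 also differed, with 0.74 in Arg260 and 0.76 in WT for the brighter and 0.12 and 0.10 for the other.

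The remaining activators and the inhibitor were split. Psme4, an activator of the core that works without ATP, read 0.34, 0.24, 0.23 and -0.02 in Arg260 E2, -0.62, -0.70, -0.60 and -0.72 in Arg260 PLB, 0.43, 0.18, 0.21 and 0.07 in WT E2, and -0.95, -0.67, -0.67 and -0.87 in WT PLB uteri, a rise of 0.86 and 1.01. Psme3, the nuclear relative of PA28, rose by 0.88 and 0.67. Psmf1, named as a proteasome inhibitor, read -0.83, -1.04, -1.02 and -1.10 in Arg260 E2, -1.08, -0.96, -0.94 and -0.97 in Arg260 PLB, -1.13, -1.04, -0.90 and -1.12 in WT E2, and -1.10, -1.04, -0.99 and -0.87 in WT PLB uteri. Its groups overlapped, and its change of -0.01 (95% interval -0.18 to 0.16) in Arg260 and -0.05 (-0.22 to 0.12) in WT was not called. Psmc3ip rose by 0.77 in each genotype.

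Genotype made no called difference among the members. The E2 response differed between Arg260 and WT for 0 of 47 members, and 0 were called between Arg260 and WT in E2 or in PLB uteri, in limma, where 0% of all genes were called in each. At an unadjusted p under 0.05 there was 1 member (2.13%) in the difference of responses, 7 (14.9%) in E2 and 0 in PLB uteri, where 3.72%, 7.35% and 2.47% of all genes had such a p. Of the 7 in E2 uteri, 4 were among the 5 immunoproteasome and PA28 genes and 2 among the 17 cap genes. Another was 1 of 7 assembly chaperones, and 0 of 14 core genes had such a p. This split by class was read after the values were seen. The arrays of Arg260 and WT did not overlap for 6 members in E2 (3.96% of all genes) and 0 in PLB uteri (1.66%). The 6 were Psmb8, Psmb10, Psme1, Psmc4, Psmc5 and Psmd6, named after their values were seen. Psmb8 was the member with the smallest p in both the difference of responses (log2 0.44, 95% interval 0.06 to 0.82, unadjusted p = 0.0273, adjusted p = 1.0) and the comparison of E2 uteri (0.56, 0.29 to 0.83, unadjusted p = 0.000588, adjusted p = 0.32). In E2 uteri all 4 Arg260 values of Psmb8 (2.28 to 2.52) lay above all 4 WT values (1.63 to 2.08). Without Psmb3, no member's 95% interval for the difference of responses passed -0.45 or 0.82.

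**Figure D5:**
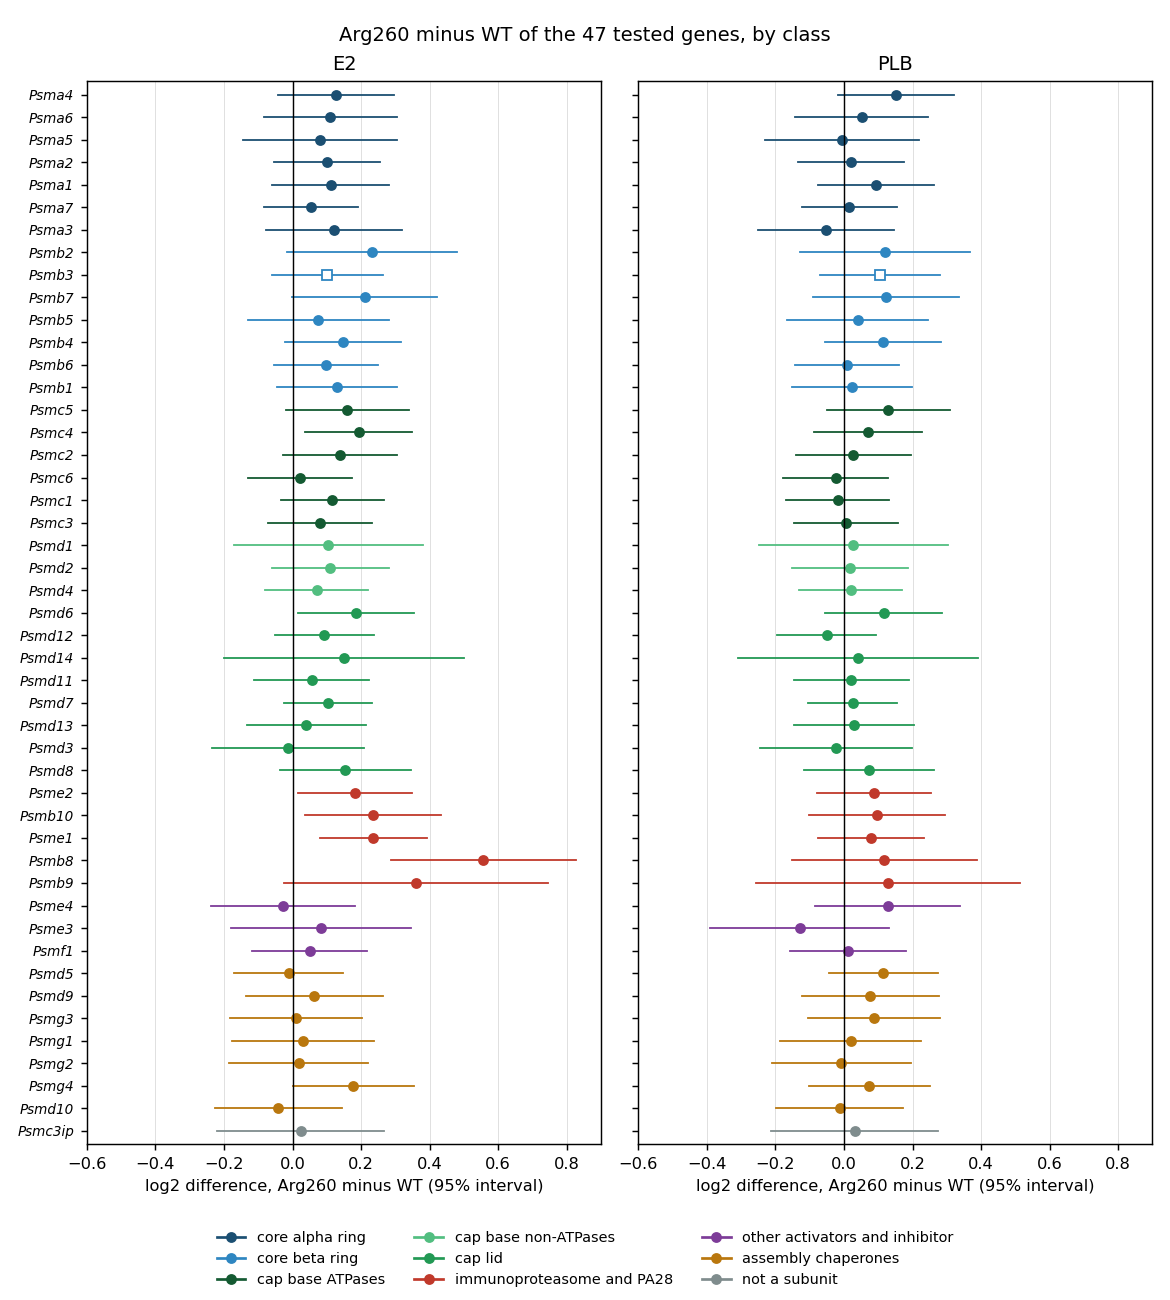
Log2 difference in signal, Arg260 minus WT, of each of the 47 tested genes (points) with its 95% interval (lines), in E2 uteri on the left and PLB uteri on the right, coloured by class; the open square is Psmb3 without the failed spot. The intervals in PLB uteri all cross 0, and in E2 uteri Psmb8 lies furthest to the right at 0.56; none was called after adjustment.

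The neighbours of the proteasome in the ubiquitin system were counted from lists of genes outside the Psm names. Beside these counts, 33.6% of all genes were higher and 30.7% lower in Arg260, and 31.9% and 31.7% in WT. Of 11 proteasome-associated genes 10 were higher and 0 lower in each genotype. Adrm1, a ubiquitin receptor of the cap, had the largest change, 1.83 (SE 0.07) in Arg260 and 1.86 (SE 0.07) in WT, and Ecpas, an adaptor of the proteasome, the smallest value, 0.03 and -0.02. Usp14, a cap-bound deubiquitinase, rose by 1.19 and 1.07, and Pomp, which matures the core, by 0.70 and 0.64. Of 11 genes of ubiquitin shuttles, Vcp and its partners, 10 were higher and 1 lower in Arg260 and 10 higher and 0 lower in WT. Ubqln1, a shuttle that delivers substrates, rose by 2.35 and 2.24, and its relative Ubqln2 fell by 0.23 (adjusted p = 0.0372) in Arg260, with a value of 0.03 (adjusted p = 0.779) in WT. Of 6 ubiquitin and activating enzyme genes 4 were higher in each genotype, led by the activating enzyme gene Uba1 (0.86 and 0.71).

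Of 9 genes on the Nfe2l1 route, 6 were higher and 1 lower in Arg260, where 33.6% of all genes were higher and 30.7% lower. In WT 6 were higher and 2 lower, where 31.9% of all genes were higher and 31.7% lower. Nfe2l1 itself rose by 1.61 (SE 0.09) in Arg260 and 1.56 (SE 0.09) in WT, and Ddi2, the protease that cuts and releases its protein, by 1.61 (SE 0.08) and 1.62 (SE 0.08). Maff, a small partner of such factors, rose by 2.25 and 1.60. Ngly1, the enzyme that removes sugars from the Nfe2l1 protein, fell by 0.46 (adjusted p = 0.0207) in Arg260 and by 0.70 (adjusted p = 0.00153) in WT. Mafk fell by 0.25 (adjusted p = 0.0152) in WT, with -0.05 (adjusted p = 0.608) in Arg260. Nfe2l2 had 0.19 and 0.18 and was not called (adjusted p = 0.0876 and 0.0914).

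Promoter letters were read because core and cap members moved together. RefSeq promoters on GRCm38.p6, 300 bases each from 250 before the gene's start, matched 41 of the 49 genes by symbol. The antioxidant response element, the motif Nfe2l1 binds, was searched as TGACNNNGC on both strands. It was present in 4 of 25 core and cap genes (16%), near the 13.99% of all 27025 genes in the table. The interferon motif GAAANNGAAA was present in 5 of 41 members (12.2%, against 3.99% of all genes), namely Psmb3, Psmd4, Psmd9, Psme1 and Psmg4, of which Psme1 alone is of the immunoproteasome class. The interferon gamma motif TTCNNNGAA was present in 3 members (7.32%, against 9.55%), among them Psmb8. The estrogen response element GGTCANNNTGACC was present in 0 of 41, and in 0.07% of all genes. The last motif searched, CCAAT, was present in 10 of 25 core and cap genes (40.0%), near the 41.06% of all genes. A match says only that the letters are in this window. The 3 promoters shown are those of catalytic subunits with a match of the first or the third motif, which stands in capitals. The match begins at position -47 from the start in Psmb5 (chr14:54617946-54618245, minus strand), at -9 in Psmb6 (chr11:70525107-70525406, plus strand) and at -97 in Psmb8 (chr17:34197945-34198244, plus strand). None of the 3 holds another of the motifs searched.
Psmb5 promoter: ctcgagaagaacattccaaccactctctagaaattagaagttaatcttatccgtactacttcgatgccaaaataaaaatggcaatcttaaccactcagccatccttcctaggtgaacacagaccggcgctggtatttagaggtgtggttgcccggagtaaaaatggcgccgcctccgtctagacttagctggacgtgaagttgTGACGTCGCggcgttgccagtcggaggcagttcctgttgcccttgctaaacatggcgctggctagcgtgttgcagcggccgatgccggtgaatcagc
Psmb6 promoter: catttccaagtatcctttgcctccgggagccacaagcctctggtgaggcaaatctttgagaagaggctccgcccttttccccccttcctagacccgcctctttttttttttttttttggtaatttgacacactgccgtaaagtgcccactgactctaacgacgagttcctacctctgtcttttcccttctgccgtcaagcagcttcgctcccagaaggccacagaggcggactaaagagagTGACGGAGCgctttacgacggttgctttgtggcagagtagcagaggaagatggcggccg
Psmb8 promoter: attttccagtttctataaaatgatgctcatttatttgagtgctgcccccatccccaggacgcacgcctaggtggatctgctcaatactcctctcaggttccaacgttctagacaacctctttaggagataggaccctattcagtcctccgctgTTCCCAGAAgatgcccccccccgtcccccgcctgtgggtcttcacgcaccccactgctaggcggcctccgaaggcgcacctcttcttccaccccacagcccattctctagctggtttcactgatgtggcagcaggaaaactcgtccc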

How the data were processed

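Per the file headers, the authors read the scans with Agilent Feature Extraction 10.10.1.1, and the deposited intensity is the background-subtracted processed signal of each spot. The authors' series table, on a log2 scale, covers 37585 probes; its 16 columns share 1 distribution (medians 8.69), with limma among the tools in the submitters' processing notes; the rest of its processing is not given in the sources used here, and it served as an alternative. Each array's log2 75th percentile over non-control spots (922 to 1296) was subtracted, outlier spots were left out, and spots of a probe were averaged. Probes well above background on at least 4 of 16 arrays were kept, and the brightest kept probe stood for each gene. This gave 25862 tested genes, of which 137 had a missing value. Group means of the 4 groups were fitted with limma 3.58.1 in R 4.3.3 (12 residual degrees of freedom, two-sided, Benjamini-Hochberg over all genes, called at an adjusted p under 0.05), tested on simulated data first. Replicates 1 and 2 lay on slide 1, and 3 and 4 on slide 2, with every group on both. Precision is limited by the number of arrays: a member's 95% interval reached a median of 0.18 to either side for E2 in WT. Gene names were updated through a RefSeq table of GRCm38.p6; members go by the array's names. The named genes are the 6 catalytic subunits, the largest and smallest WT change of each class, members called against their class, and in the other lists the highest, the lowest and those against the majority; a few others are given as examples by role, and some members of the other lists are not reported here by name. Members, lists and tests were chosen with earlier results of these data known. The alternatives were slides apart, slide and replicate blocks, other scalings and background correction, the series table, the filter, the probe rule, each array left out, and 2 added after seeing the data.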

Additional observations from a re-analysis of the deposited data

Results flagged for a closer look

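In 7 of 188 sets of 4 arrays the highest or lowest array stood far from the other 3 by Dixon's criterion, which chance alone meets in about 1 in 20. The largest gap was that of Psmb3 on WT PLB replicate 2, which read -8.35 where the others read 4.21 to 4.31. The other 6 were small. Psma1 read 3.95 on Arg260 PLB replicate 4 (others 3.74 to 3.76), and Psmd10 read 0.23 on the same array (0.42 to 0.45). Psmd10 also read 0.48 on WT PLB replicate 2 (0.36 to 0.38). Psmd11 and Psmd12 read 2.62 and 5.24 on WT E2 replicate 4 (2.72 to 2.73 and 5.45 to 5.48). Psmd3 read 6.49 on Arg260 E2 replicate 3 (6.61 to 6.64).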

How the results depend on the processing

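The call or lack of a call of 36 of 47 members in the E2 comparisons, among them 30 of the 31 core and cap genes, stood under all 31 alternatives. Leaving out each array in turn gave 42 to 43 members higher and 2 lower in Arg260, 40 to 43 higher and 2 to 3 lower in WT, and 0 in the genotype comparisons. The members called lower numbered 0 in Arg260 and 1 in WT within slide 2 and 1 in Arg260 with the mean of all probes. The pair changes were Psmb9 minus Psmb6 -1.97 and -1.92, Psmb8 minus Psmb5 -1.19 and -1.33, and Psmb10 minus Psmb7 -1.07 and -0.76 within slides 1 and 2, each at an exact permutation p of 0.0556, and with each array left out -2.01 to -1.86, -1.32 to -1.19 and -0.96 to -0.87. Values reversed under quantile normalisation, normexp with quantile, and the series table, in that order: Psmb10 -0.14, -0.12 and -0.14 in Arg260 and -0.21, -0.17 and -0.17 in WT; Psme1, also the median of the immunoproteasome and PA28 class, -0.16, -0.17 and -0.14 in Arg260 and -0.25, -0.24 and -0.26 in WT; Psme2 -0.053, -0.071 and -0.084 in Arg260 and -0.11, -0.11 and -0.094 in WT. Psme2 and the class median in WT were also reversed with the mean of all probes (-0.046). The series table lowered the core median to 0.57 in Arg260 and 0.53 in WT. The cause was not tested. Deviations of same-numbered samples correlated at -0.11 to 0.26, with 3 of 24 pairs over 0.1. Without differently numbered pairs beside them, these values cannot show whether the numbers pair samples. With the replicate number as a block 42 members were higher and 2 lower in both genotypes. Psmb8 in WT then lost its call (adjusted p = 0.066 in limma).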
